A study of Mus musculus with 46 samples.

Results

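Ly6a, Ly6c1 and Plaur, which encode surface proteins of the LY6/uPAR family, were followed across mouse embryos with a knockout (KO) of Rbbp5 and wild-type (WT) embryos. Rbbp5 is a shared subunit of the complexes that methylate histone H3 at lysine 4. These 3 genes were taken by name from an expression table of 7182 genes. They were chosen by their RNA values in all groups, the KO and WT levels at E5.5 included, so their levels are given as a description with no test. RNA came from 33 libraries of 46 samples. At embryonic day (E) 3.5, 7 KO and 7 WT libraries were each made from the inner cell mass (ICM) of a blastocyst. Epiblasts of single E5.5 embryos gave 3 KO and 3 WT libraries. At E4.5 single blastocyst cells gave 3 KO and 7 WT epiblast libraries, and 2 KO and 1 WT primitive endoderm libraries. KO embryos were made in zygotes, by injection of Cas9 mRNA with guide RNA or by Cre mRNA in embryos with a floxed Rbbp5, and the labels do not tie a library to either route or to a strain. Rbbp5 itself was not analysed here. Levels are FPKM, which are scaled to the length of the transcript and to all mapped fragments in a library, so levels can be set side by side between genes, and the depth behind them is unknown.

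LY6/uPAR proteins carry a compact disulfide-bonded domain of finger-like loops, and most sit on the outer face of the cell membrane on a lipid anchor, glycosylphosphatidylinositol (GPI). Ly6a is stem cell antigen 1 (Sca-1), a marker of mouse blood stem cells, and Ly6c1 encodes an antigen of the Ly6C group that is known from mouse endothelium and leukocytes. Plaur encodes uPAR, the receptor that holds the protease urokinase at the cell surface, where urokinase turns plasminogen into plasmin and cells clear matrix. In mouse development this protease system is known from the trophoblast that invades the uterus.

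Ly6a lies on chromosome 15 at 74994877 to 74998031 and Ly6c1 at 75044018 to 75048920 (GRCm38.p6, RefSeq), inside a cluster of Ly6 genes. Plaur lies on chromosome 7 at 24460937 to 24475970. Promoters of 300 bases, from 250 bases before to 50 bases after the first start listed for the gene in the RefSeq promoter table, are shown for Plaur, for Ly6c1 and for its cluster neighbours Ly6c2 and Ly6f, since the cluster genes did not share a pattern and the letters show how alike their starts are. Each of these starts lies inside the bounds of its gene given here, and distances below are counted from it, not from the outer end of the gene. The promoters are written 5′ to 3′ on the strand of the gene, at chr7:24462233-24462532 (plus strand) for Plaur, chr15:75048788-75049087 (minus strand) for Ly6c1, chr15:75111922-75112221 (minus strand) for Ly6c2 and chr15:75268171-75268470 (plus strand) for Ly6f. Capitals mark matches, on either strand, to 4 letter patterns: the TATA box type TATAAA, the GC box GGGCGG, the STAT factors' pattern TTCNNNGAA, and the AP-1 pattern TGANTCA.
Plaur: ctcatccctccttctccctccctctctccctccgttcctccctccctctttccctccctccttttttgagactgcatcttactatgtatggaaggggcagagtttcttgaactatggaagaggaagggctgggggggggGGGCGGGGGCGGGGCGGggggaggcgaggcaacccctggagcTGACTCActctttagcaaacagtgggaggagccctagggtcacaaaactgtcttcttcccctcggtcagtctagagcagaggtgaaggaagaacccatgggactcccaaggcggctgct
Ly6c1: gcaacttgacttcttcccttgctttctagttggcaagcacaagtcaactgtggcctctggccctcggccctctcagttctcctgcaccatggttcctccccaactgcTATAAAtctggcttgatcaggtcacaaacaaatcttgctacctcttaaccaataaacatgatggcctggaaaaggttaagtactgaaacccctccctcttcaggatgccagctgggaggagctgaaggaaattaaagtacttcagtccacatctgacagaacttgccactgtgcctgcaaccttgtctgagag
Ly6c2: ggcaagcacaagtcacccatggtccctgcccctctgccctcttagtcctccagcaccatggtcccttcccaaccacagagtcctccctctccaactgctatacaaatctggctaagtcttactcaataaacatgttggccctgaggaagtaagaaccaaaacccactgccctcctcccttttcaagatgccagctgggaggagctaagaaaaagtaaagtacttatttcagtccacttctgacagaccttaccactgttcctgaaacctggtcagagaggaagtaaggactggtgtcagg
Ly6f: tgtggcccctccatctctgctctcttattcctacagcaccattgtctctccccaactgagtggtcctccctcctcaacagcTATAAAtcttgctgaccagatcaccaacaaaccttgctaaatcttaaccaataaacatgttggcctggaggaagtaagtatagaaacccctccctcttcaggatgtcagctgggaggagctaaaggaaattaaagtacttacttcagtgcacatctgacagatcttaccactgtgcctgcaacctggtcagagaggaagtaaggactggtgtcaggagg
The Plaur promoter held GGGCGG starting 111, 105 and 100 bases before the start, the last pair sharing a base, and a TGANTCA match starting 69 bases before it. Of 27025 mouse promoters of the same length, 35.9% held GGGCGG and 7.93% held TGANTCA. The pattern TATAAA stood 143 bases before the start in Ly6c1 and 169 bases before it in Ly6f, and 14.2% of all promoters held it. The Ly6c2 promoter held none of these patterns, and TTCNNNGAA was in none of the 4 promoters, against 8.47% of all. Plaur had 7 CpG sites in this window, which equals the median of all promoters, while Ly6c1 had 1 and Ly6c2 and Ly6f had 0. By local alignment, Ly6c1 and Ly6f were 86.7% identical over 211 columns, Ly6c1 and Ly6c2 74.8% over 286 and Ly6c2 and Ly6f 75.7% over 305. Of the 393 CpG positions listed in the 4 single-cell methylomes, 0 lay within 5 kb of Ly6a, Ly6c1 or Plaur.

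The libraries labelled KO E5.5 epiblast had lower sums of epiblast markers and higher sums of trophectoderm markers than the WT ones. Summed over 17 epiblast markers, they held 322, 413 and 686 FPKM, against 1765, 1594 and 1590 FPKM in WT E5.5 epiblasts. Summed over 17 trophectoderm markers, genes of the outer layer that forms the placenta, they held 4415, 2443 and 2555 FPKM, against 101 to 151 FPKM in WT. In WT, 8 of these markers, Cdx2, Gata3, Gata2, Elf5, Tead4, Gjb5, Lgals3 and Wnt7b, were under 1 FPKM in every library, and in the KO 16 of 17 were at 1 FPKM or more in every library. By the same count the epiblast markers did not differ in this way. Of those 17, 12 were at 1 FPKM or more in every KO library and 11 in every WT library. Sums over markers of other cells overlapped between KO and WT at E5.5 for endothelium (21.1 to 58.7 FPKM against 40.5 to 55.1), blood (1.54 to 12.2 against 1.40 to 2.43), uterine stroma (3.0 to 22.4 against 2.93 to 7.68) and primitive endoderm (22.5 to 32.5 against 19.2 to 23.2). Blood rested on 2 markers and uterine stroma on 4. In the ICM, KO libraries had 3628 to 5136 genes at 1 FPKM or more and WT libraries 5110 to 5718.

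At E5.5 all 3 genes were high in the KO libraries and near 0 in the WT epiblasts. Ly6a was at 286, 214 and 214 FPKM in the KO libraries, against 0.164, 0 and 0.306 FPKM in WT. Every KO library stood above every WT library, and the difference of 7.69 (SE 0.226) on the log2(FPKM + 1) scale was the highest of the 5956 genes tested. Ly6c1 was at 26.4, 34.9 and 35.0 FPKM in the KO libraries, against 0, 0 and 0.0984 FPKM in WT. Its KO libraries lay close together, and its log2 difference of 4.99 (SE 0.256) ranked 21 from the top. Plaur was at 136, 93.3 and 90.2 FPKM in the KO libraries, against 0.668, 1.32 and 1.002 FPKM in WT. Unlike the other genes it was detected in every WT library, so a ratio of means can be formed, and it was 106.9. Its log2 difference of 5.74 (SE 0.249) ranked 11 from the top. These comparisons chose the genes, so nothing is read from the ranks. KO libraries lay above every WT library for 22.6% of the genes tested, and below every WT library for 26.6%, and 15.6% were called higher by limma at an adjusted p of 0.05. All 3 genes passed the filter of a mean of 1 FPKM only through the KO group, the WT means being under 1 FPKM. A gene that enters this way had to be higher in the KO, so counts below say how many did. In samples of whole tissue, a change in the share of cells of a type and a change in RNA per cell cannot be told apart. The trophectoderm marker sums above moved with these values, and their part in the result was not tested.

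**Figure D1:**
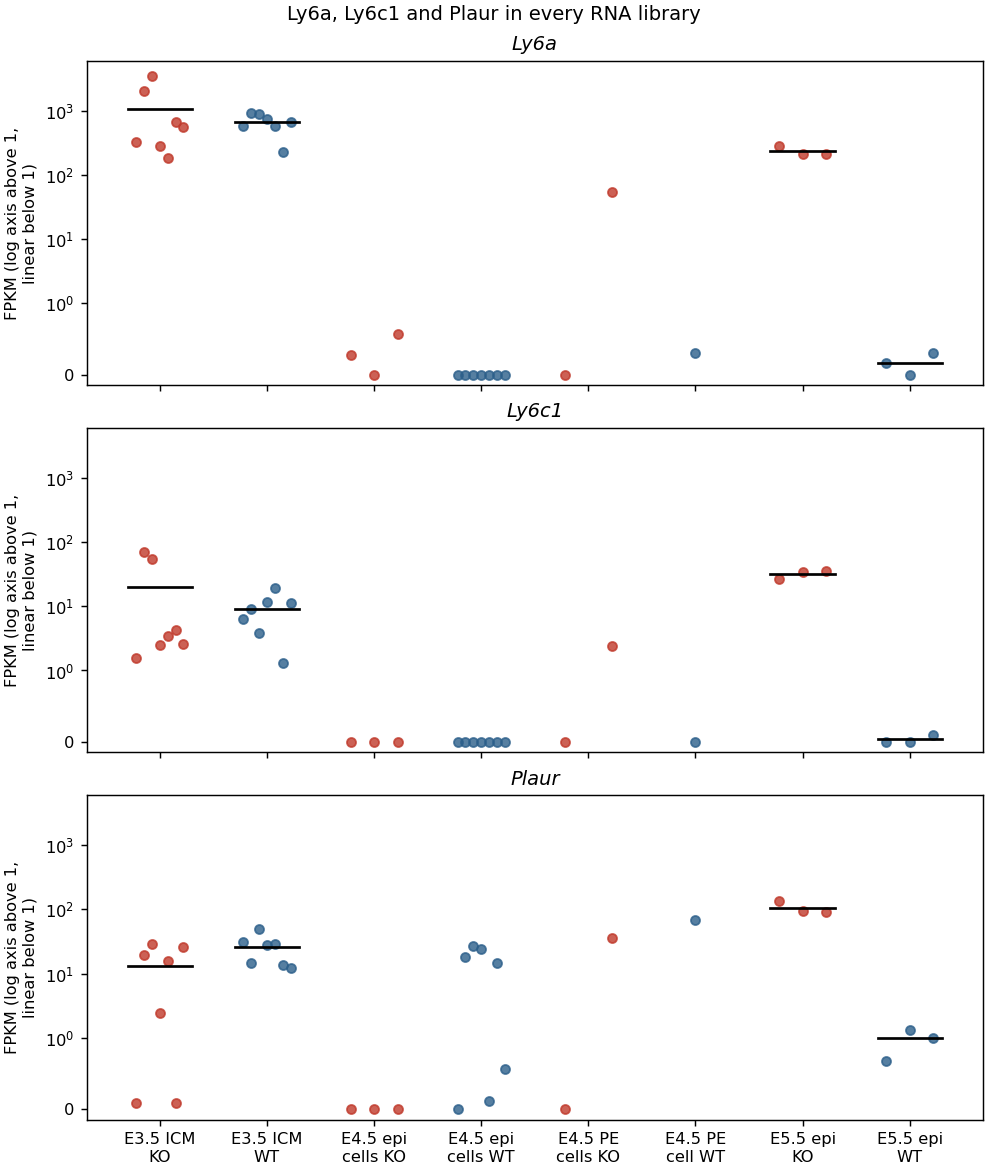
FPKM of Ly6a, Ly6c1 and Plaur in every RNA library, on an axis that is logarithmic above 1 FPKM and linear below it, with the KO (red) left of WT (blue) at each stage. Each point is a library (an embryo at E3.5 and E5.5, a cell at E4.5), lines are means of the embryo groups, and all 3 genes are near 0 in WT E5.5 epiblasts and high in the libraries labelled KO E5.5 epiblast.

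In the ICM the genes were detected in both genotypes, and the groups overlapped for each of them. KO libraries lay above every WT library for 1.29% and below it for 3.33% of the genes tested. Ly6a was among the abundant transcripts there: KO libraries spanned 186 to 3485 FPKM with a median of 571, and WT libraries 227 to 918 FPKM with a median of 680. Libraries 2 and 3 of the KO, at 2055 and 3485 FPKM, stood above every WT library, and the log2 difference of the groups was 0.08 (SE 0.521). Ly6c1 spanned 1.55 to 70.1 FPKM in the KO with a median of 3.49, and 1.33 to 19.4 FPKM in WT with a median of 9.21. The same KO libraries, 2 and 3, stood above every WT library, at 70.1 and 55.6 FPKM, and the log2 difference was 0.03 (SE 0.732). The sign of the Ly6a difference changed with quantile normalization (-0.24), and that of Ly6c1 with a pseudocount of 0.1 (-0.04). Both signs also changed when single libraries were left out, over ranges of -0.32 to 0.38 for Ly6a and -0.48 to 0.32 for Ly6c1.

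Plaur spanned 0.0755 to 28.4 FPKM in KO ICMs with a median of 15.4, and 12.4 to 49.6 FPKM in WT ICMs with a median of 28.2. KO libraries 1, 4 and 6, at 0.0755, 2.43 and 0.0846 FPKM, stood below every WT library. The log2 difference was -1.72 (SE 0.723). Those 3 are also the KO libraries with the fewest genes at 1 FPKM or more, 3628, 3642 and 3883. Without them the log2 difference of Plaur was -0.07. They are also the 3 KO libraries with the least Plaur, so leaving them out had to shrink the difference. Nothing is read from that value, and the part of their low gene numbers was not tested. Over all 5443 genes tested the median log2 difference was -0.65, and 1540 genes (28.3%) were called, of which 187 (3.44%) were higher and 1353 (24.9%) lower. The split of called genes depended on scaling: 12.1% were higher as given here, 47.6% after quantile normalization and 47.3% with median ratio scaling.

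Marker sums of other cell types varied among the ICM libraries as well. Trophectoderm sums in KO libraries 1 to 7 were 112, 278, 237, 86.4, 244, 187 and 197 FPKM, and Ly6a was at 325, 2055, 3485, 286, 186, 668 and 571 FPKM in them. Libraries 2 and 3, with the most Ly6a, had 278 and 237 FPKM of these markers, and library 5, with the least Ly6a, had 244 FPKM. Sums over the 2 blood markers in KO libraries 1 to 7 were 30.3, 56.8, 59.3, 56.5, 9.75, 34.7 and 27.4 FPKM, highest in libraries 3 and 2 with library 4 close to them, against 12.4 to 30.4 FPKM in WT. The part of either marker set in the Ly6a and Ly6c1 levels was not tested. Over all ICM libraries the trophectoderm sums were 86.4 to 278 FPKM in the KO and 180 to 1257 FPKM in WT. Leaving out libraries 1, 4 and 6 of the KO put the log2 difference at 0.61 for Ly6a and 0.95 for Ly6c1.

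All 3 genes were far lower in WT E5.5 epiblasts than in WT ICMs, whereas each was at 26.4 FPKM or more in every library labelled KO E5.5 epiblast. In WT, every E5.5 epiblast lay below every ICM for each gene, as it did for 15.9% of the 6022 genes tested, and above every ICM for 33.8%. Of all genes 37.3% were called higher and 18.9% lower. Ly6a averaged 0.157 ± 0.153 FPKM in WT epiblasts (SD, n = 3) and 662 ± 235 FPKM in WT ICMs (SD, n = 7), a log2 difference of -9.06 (SE 0.348). Ly6c1 averaged 0.0328 ± 0.0568 and 8.99 ± 5.97 FPKM, a difference of -3.0 (SE 0.533), and Plaur 0.997 ± 0.327 and 25.6 ± 13.4 FPKM, a difference of -3.59 (SE 0.399), in WT epiblasts and WT ICMs. Among KO libraries, Plaur averaged 107 ± 25.7 FPKM at E5.5 (SD, n = 3) and 13.1 ± 12.2 FPKM in the ICM (SD, n = 7), and the groups did not overlap. The share of all genes without overlap between these KO groups was not computed, so nothing is read from that gap. Ly6c1 averaged 32.1 ± 4.97 FPKM at E5.5 (SD, n = 3) and lay between 1.55 and 70.1 FPKM in the ICM of the KO, with overlap. Ly6a averaged 238 ± 41.7 FPKM at E5.5 and 1082 ± 1236 FPKM in the ICM of the KO, also with overlap. The WT epiblasts serve in both the genotype and the stage comparison, and so do the WT ICMs, so the results share libraries.

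The E4.5 cells form 1 sample per group, because the labels name no embryo for them, and no test was made. Ly6a was listed at 0 in all 7 WT epiblast cells and at 0.281, 0 and 0.572 FPKM in the KO epiblast cells. Ly6c1 was listed at 0 in every epiblast cell of both genotypes. Plaur was listed at 0 in all 3 KO epiblast cells, whereas WT epiblast cells were at 17.9, 26.8, 24.2 and 14.8 FPKM in 4 cells and at 0, 0.114 and 0.556 FPKM in the other 3. The KO epiblast cells had 3026 to 3628 genes at 1 FPKM or more, against 3878 to 4682 in WT, and the part of that gap in the zeros was not tested. Primitive endoderm, the layer that gives the yolk sac, had Plaur at 0 and 35.4 FPKM in the KO cells and at 69.4 FPKM in the WT cell. A single KO endoderm cell held all 3 genes, with 54.5 FPKM of Ly6a and 2.40 FPKM of Ly6c1, while the other KO cell was listed at 0 for each. The WT endoderm cell had 0.301 FPKM of Ly6a and was listed at 0 for Ly6c1.

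The order of group means differed by gene. The single-cell columns of the table may have been made separately from the embryo columns, so places of the E4.5 cells in it are a description that was not tested. For Ly6a it ran from KO ICM and WT ICM, which overlapped, to the libraries labelled KO E5.5 epiblast, which lay within the lower end of the KO ICM range and below every WT ICM but that at 227 FPKM, which a single KO E5.5 library exceeded. KO primitive endoderm followed, and the other groups were under 1 FPKM in every library. For Ly6c1 the highest mean was that of KO E5.5, whose libraries lay above all WT ICMs and within the KO ICM range. For Plaur it was again KO E5.5, above every other embryo library, followed among embryo groups by the WT ICMs and the KO ICMs, which overlapped, and the WT epiblasts.

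The family list held 44 genes, of which 14 were in the table. Besides Ly6a, Ly6c1 and Plaur, 4 of the other 11 were tested at E5.5, where 34.1% of all genes were called. The 2 that were higher, Ly6c2 and Ly6g, passed the filter only through the KO group, and of the 2 that fell, Cd59b passed only through WT, so the counts carry no weight. Ly6c2, a near-identical copy of Ly6c1, was at 4.63, 18.8 and 8.43 FPKM in the KO, against 0, 0 and 0.0530 FPKM in WT (log2 difference 3.32, SE 0.418). Reads may be shared between Ly6c1 and Ly6c2, and the labels do not say how such reads were counted, so their split is uncertain. Ly6g, the neutrophil antigen of the cluster, was at 3.63, 2.69 and 3.10 FPKM in the KO and listed at 0 in every WT library. Ly6e, known as a receptor for syncytin in mouse placenta, fell to 3.97, 4.68 and 9.997 FPKM, against 17.7, 16.8 and 21.3 FPKM in WT (log2 difference -1.53, SE 0.311, limma adjusted p = 0.00445). The Ly6e call was lost when all 4 embryo groups shared 1 fit (adjusted p = 0.0801). Cd59b, an inhibitor of complement, was at 0, 1.02 and 1.88 FPKM in the KO, against 6.02, 4.79 and 9.496 FPKM in WT (log2 difference -2.06, SE 0.409). Genes of the chromosome 15 cluster differed both ways: Ly6e, at 74955025 to 74959904, starts before Ly6a and was lower, while Ly6c2, at 75108161 to 75112066, and Ly6g, at 75155261 to 75159128, lie beyond Ly6c1 and were higher. Ly6f, at 75268372 to 75272237, was at 2.15, 0.542 and 0.349 FPKM in the KO and listed at 0 in WT, and Ly6k, at 74796874 to 74799968, was listed at 0 in the KO. Both were below the filter at E5.5.

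**Figure D2:**
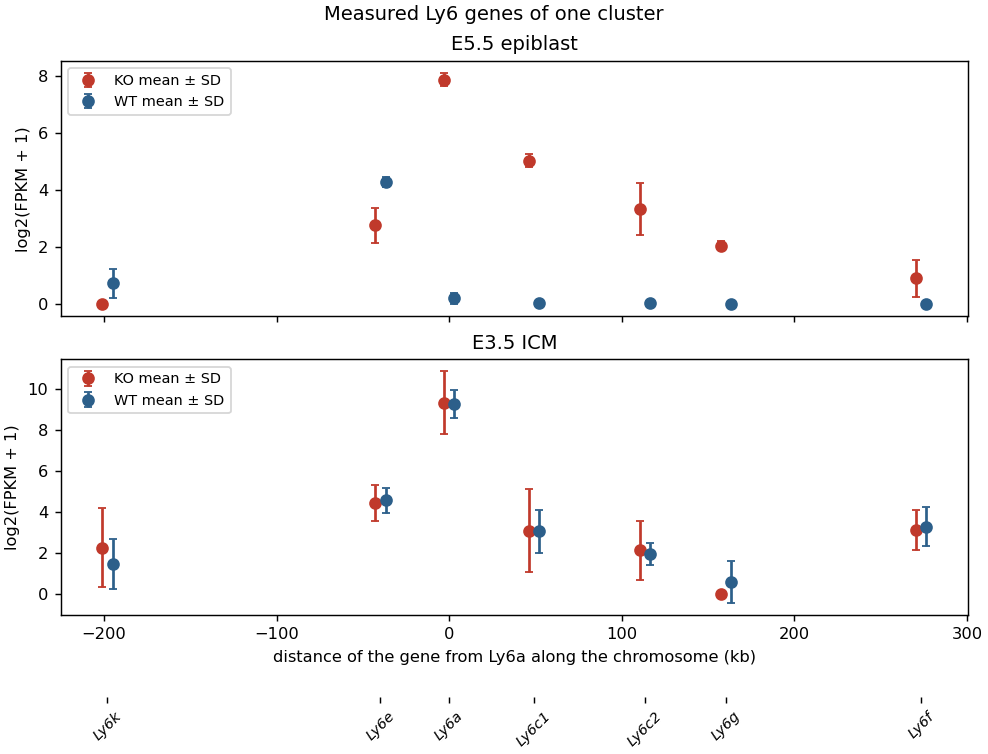
Mean log2(FPKM + 1) of the Ly6 genes of the chromosome 15 cluster in KO (red) and WT (blue) libraries of E5.5 epiblast and of the ICM, against the distance in kb from Ly6a. Bars are the SD (7 ICM libraries and 3 epiblasts per genotype). At E5.5 Ly6a, Ly6c1, Ly6c2 and Ly6g are higher in the KO while Ly6e is lower.

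In the ICM, 7 of these 11 family genes were tested, 1 rose and 0 fell, with a median of 0.18. Of all genes tested there, 3.44% rose and 24.9% fell, with a median of -0.654. Cd59b averaged 39.3 ± 19.98 FPKM in the KO and 16.0 ± 7.54 FPKM in WT (SD, n = 7 each; log2 difference 1.18, SE 0.353, adjusted p = 0.0209), a call that was lost without KO libraries 1, 4 and 6 (0.87, adjusted p = 0.157). Ly6c2 was at 15.1 and 17.9 FPKM in KO libraries 2 and 3, those with the most Ly6a and Ly6c1, and at 0.706 to 2.82 FPKM in the other KO libraries. From the WT ICM to the WT epiblast, 7 were tested, 0 rose and 5 fell, with a median of -1.92, while 56.3% of all genes were called. Cd59a (log2 difference -4.62), Ly6g6e (-3.96), Ly6f (-3.26), Ly6c2 (-1.93) and Cd59b (-1.08, adjusted p = 0.0168) were the 5. Of these 4, all but Cd59b, passed the filter only through the ICM, so the counts and the median carry no weight. The Cd59b call was lost with 4 groups in 1 fit (adjusted p = 0.0598), and without WT epiblast 1 (adjusted p = 0.0636) or 2 (adjusted p = 0.0945). Ly6e was at -0.27 (adjusted p = 0.516) and Ly6k at -0.72 (adjusted p = 0.335).

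Of the plasminogen activation list, 3 of 17 genes were in the table, and the 2 that were tested are the annexin A2 pair, which binds plasminogen and its activator at the cell surface. Both rose at E5.5, as did 15.6% of all genes tested. Anxa2 was at 284, 180 and 119 FPKM in the KO, against 2.24, 2.55 and 3.60 FPKM in WT (log2 difference 5.61, SE 0.305, adjusted p = 1.83e-06). Its partner S100a10 was at 522, 190 and 267 FPKM in the KO, against 43.5, 33.03 and 39.8 FPKM in WT (2.92, SE 0.324, adjusted p = 0.000302). No KO library overlapped a WT library for either gene. In the ICM neither passed: Anxa2 averaged 33.9 ± 23.4 FPKM in the KO and 85.6 ± 52.4 FPKM in WT (log2 difference -1.66, adjusted p = 0.0584), and S100a10 had a difference of 0.11 (adjusted p = 0.842). Both fell in WT from the ICM to the epiblast, by 4.30 (adjusted p = 4.26e-06) and 1.70 (adjusted p = 0.00391) on the log2 scale. In E4.5 epiblast cells Anxa2 was at 1.54 to 1.71 FPKM in the KO and 1.91 to 101 FPKM in WT. Plat, the tissue-type activator, reached at most 4.05 FPKM, in WT ICM library 1. Urokinase itself was not analysed here.

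**Figure D3:**
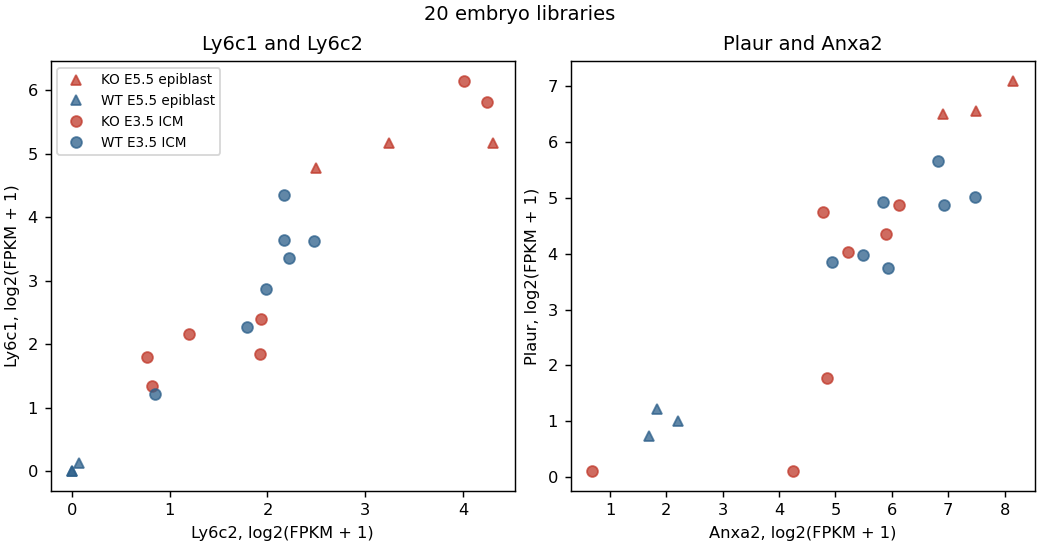
The log2(FPKM + 1) of Ly6c1 against Ly6c2 and of Plaur against Anxa2 in the 20 embryo libraries. Each point is a library, KO in red and WT in blue, with triangles for E5.5 and circles for the ICM. In the Plaur and Anxa2 panel the KO E5.5 points lie at the top right, and the WT E5.5 points lie at the lower left. Of the KO ICM libraries with little Plaur, library 1 also had little Anxa2 (0.599 FPKM). Libraries 4 and 6 had 28.0 and 18.1 FPKM of Anxa2 and lie further right.

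Genes listed as partners of uPAR, namely integrins, Igf2r and the cytoplasmic kinases Ptk2 and Src, were called both ways at E5.5. Of 8 tested, 3 rose and 2 fell, with a median of 0.39. Over all genes the median was -0.07, and 15.6% rose and 18.5% fell. Itgav, the alpha subunit of the vitronectin receptor, averaged 35.4 ± 20.9 FPKM in the KO and 3.81 ± 2.96 FPKM in WT (SD, n = 3 each; log2 difference 2.93, adjusted p = 0.00428), and Itgb1 25.0 ± 5.53 and 8.35 ± 1.68 FPKM (1.47, adjusted p = 0.00173). Igf2r also rose (1.26, adjusted p = 0.0162). The laminin-binding alpha subunits Itga3 (-1.97, adjusted p = 0.00317) and Itga6 (-1.53, adjusted p = 0.00301) fell, and the Itga6 call was lost with 4 groups in 1 fit (adjusted p = 0.0814). In the ICM 7 were tested, 0 rose and 1, Itga5, fell (-1.21), against 3.44% and 24.9% of all genes. Itga5 passed the filter only through WT. Its call was lost without KO libraries 1, 4 and 6 (adjusted p = 0.205) and with quantile normalization (adjusted p = 0.273) or median ratio scaling (adjusted p = 0.06).

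Genes that build the GPI anchor mostly missed the threshold at E5.5, with 1 of 18 tested higher, 2 lower and a median of 0.02. Of all genes tested there, 15.6% were higher and 18.5% lower. Pigc, a subunit of the first enzyme of the pathway, rose (2.15, adjusted p = 0.000648), and Pigv (-0.98, adjusted p = 0.0274) and Pigq (-0.77, adjusted p = 0.0437) fell. The calls of Pigv and Pigq were lost with 4 groups in 1 fit (adjusted p = 0.531 and 0.553) and when some single libraries were left out, among them each WT library. In the ICM 0 of 18 were higher and 3 lower, Pigq, Pigo and Pign, against 3.44% and 24.9% of all genes. The median was -1.06 against -0.654 over all genes. Pign passed the filter only through WT, and all 3 calls were lost with quantile normalization and without KO libraries 1, 4 and 6. Other proteins on GPI anchors split evenly at E5.5, with 3 higher and 3 lower of 9 tested, and of the higher ones Cd55 passed the filter only through the KO. The complement regulator Cd55 averaged 16.3 ± 12.7 FPKM in the KO and 0.450 ± 0.423 FPKM in WT (3.35), and the folate receptor Folr1 (3.0, adjusted p = 0.00821) and the ephrin Efna1 (2.01, adjusted p = 0.00104) rose with it. Cd24a (-3.76, adjusted p = 0.00235), the Nodal co-receptor Tdgf1 (-2.29, adjusted p = 0.00325) and Bst2 (-1.31, adjusted p = 0.00533) fell. With 4 groups in 1 fit the calls of Efna1 (adjusted p = 0.137) and Bst2 (adjusted p = 0.305) were lost. In the ICM 0 of 9 tested were higher and 4 lower, Folr1, Bst2, Efna1 and Efna2, with a median of -0.97. Bst2 and Efna2 passed the filter only through WT. All 4 calls were lost with median ratio scaling and without KO libraries 1, 4 and 6.

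Ly6a and Ly6e are known as interferon-induced genes in mouse cells. Of a list of other interferon response genes, 7 of 12 tested fell at E5.5, against 18.5% of all genes. The highest differences among the 12 were those of Irf9 (0.50, adjusted p = 0.299) and B2m (0.41, adjusted p = 0.458), which did not pass. Their median was -1.39 against -0.07 over all genes. Of the 7, Socs1 and Oas1a passed the filter only through WT. Among the 7 were Socs1, an inhibitor of cytokine signalling (-1.92), the transcription factor Irf1 (-1.83, adjusted p = 0.00435), Oas1a (-1.46) and Ifitm3, which is also a gene of early germ cells (-2.35, adjusted p = 0.00601). Ifitm3 averaged 30.8 ± 25.7 FPKM in the KO and 132 ± 14.0 FPKM in WT (SD, n = 3 each). The Oas1a call was lost with 4 groups in 1 fit (adjusted p = 0.172). So was that of Bst2 (adjusted p = 0.305), another of the 7, which is counted among the GPI-anchored proteins as well. In the ICM, where 3.44% of all genes rose and 24.9% fell, 2 of 11 rose, Ifitm2 (1.47, adjusted p = 0.0129) and Ifitm3 (1.49, adjusted p = 0.0184), and 3 fell, all 3 having passed the filter only through WT. Without KO libraries 1, 4 and 6 neither rise passed (adjusted p = 0.088 and 0.0506).

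Of the AP-1 and ERK target list, 3 of 7 tested were higher at E5.5 and 2 lower, against 15.6% and 18.5% of all genes. All 3 that were higher passed the filter only through the KO, and Etv4 only through WT, so the counts carry no weight. The AP-1 subunit Fos averaged 23.3 ± 4.63 FPKM in the KO and 0.130 ± 0.145 FPKM in WT (SD, n = 3 each; log2 difference 4.41). The AP-1 subunit Junb (1.69) and Phlda1 (2.33) were higher too, while the ETS factors Etv5 (-2.47, adjusted p = 0.000547) and Etv4 (-1.20) were lower.

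Trophectoderm markers were higher at E5.5 in 16 of 16 tested, of which 10 passed the filter only through the KO, Gata3 and Elf5 among them, so the count and the median of 4.73 are a description. Over all genes tested at E5.5, 15.6% were called higher and 18.5% lower. Gata3, a transcription factor of the trophoblast, averaged 147 ± 82.2 FPKM in the KO and 0.427 ± 0.259 FPKM in WT (SD, n = 3 each; log2 difference 6.58). Elf5 (5.01) and Id2 (5.22, adjusted p = 4.02e-08) were others. Of 13 epiblast markers tested 8 fell, among them Pou5f1, the pluripotency factor Oct4, at 9.84 ± 8.70 FPKM in the KO and 140 ± 45.1 FPKM in WT (-3.94, adjusted p = 0.000785). The 2 that were higher, Klf5 (log2 difference 3.72) and Esrrb (2.12), passed the filter only through the KO and are known to act in trophoblast as well. In the ICM 0 of 12 trophectoderm markers rose and 5 fell, against 3.44% and 24.9% of all genes. Their median was -1.08 against -0.654 over all genes. Among the 5 were Cldn4 (-2.97), which passed the filter only through WT, and Gata3. The Gata3 call was lost with quantile normalization (adjusted p = 0.115), with median ratio scaling (adjusted p = 0.0553) and without KO libraries 1, 4 and 6 (adjusted p = 0.164).

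**Figure D4:**
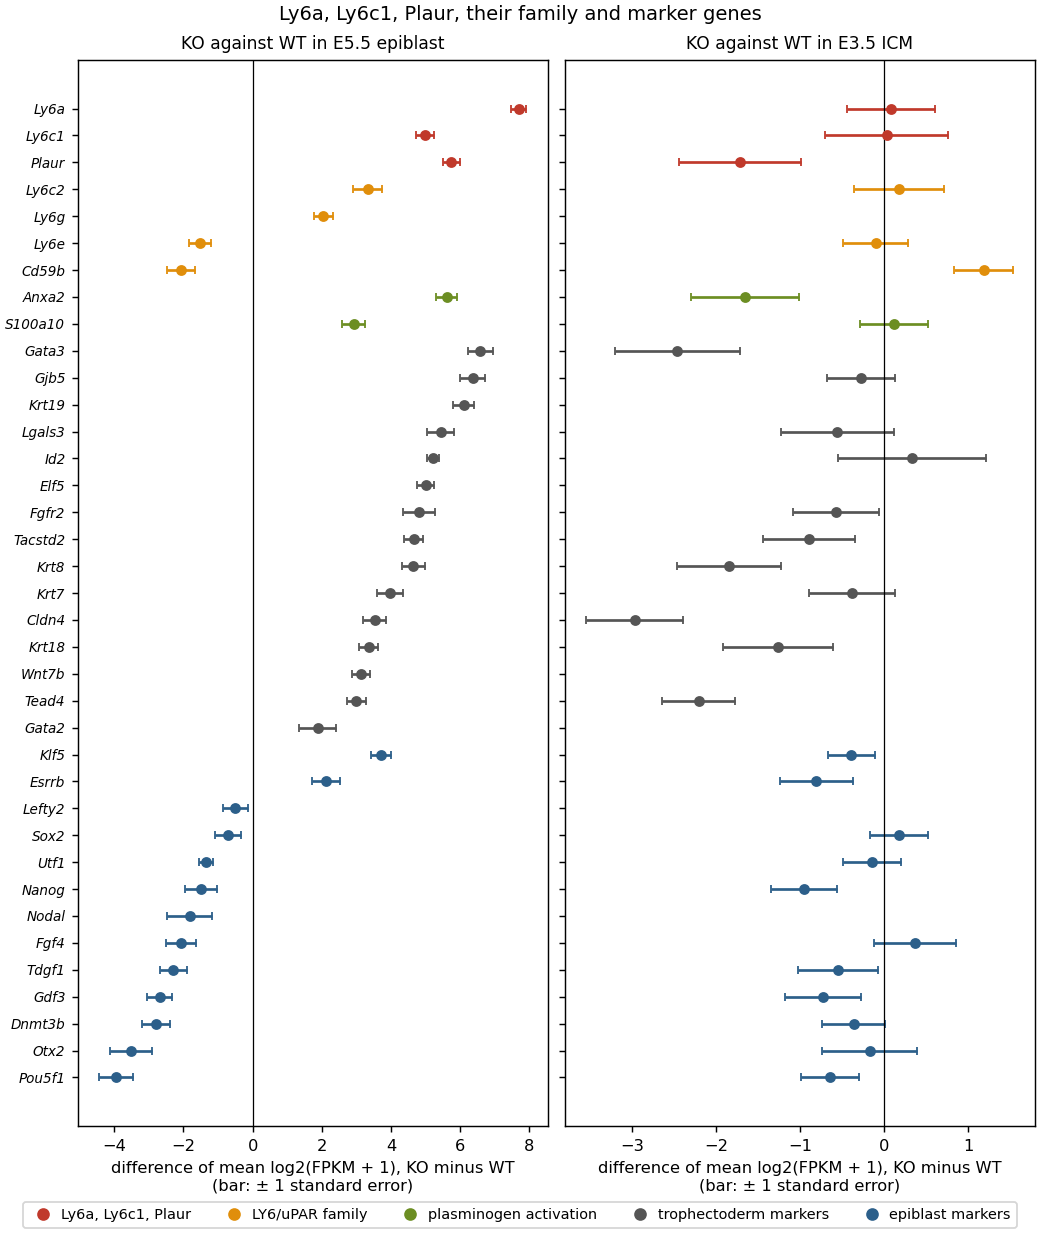
KO minus WT differences on the log2(FPKM + 1) scale, in E5.5 epiblast and in the ICM on axes of different range, for Ly6a, Ly6c1 and Plaur, the rest of the LY6/uPAR family, plasminogen activation, trophectoderm and epiblast markers. Each point is a gene tested at E5.5 and reported here, with its standard error as a bar, left out in the ICM where it was not tested there, and at E5.5 Ly6a at 7.69, Plaur at 5.74 and Ly6c1 at 4.99 lie in the range of the trophectoderm markers or above it.

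Across the 20 embryo libraries, which fall into 4 groups, the genes whose log2(FPKM + 1) was most like that of each gene were named by Pearson's r among 5912 genes, as a description. Ly6c2 (r = 0.955) was closest to Ly6c1, followed by Sfmbt2 (0.78), S100a10 (0.78), Gjb5 (0.778) and Anxa2 (0.762). Anxa2 (0.9) was closest to Plaur, followed by Tmem144 (0.895), Pros1 (0.891), Tbrg1 (0.878) and Plekhh1 (0.868). For Ly6a they were Rabac1 (0.943), Cd63 (0.935), Cd9 (0.927), Klf5 (0.926) and Zc3hav1 (0.924). Between the 3 genes themselves r was 0.711 for Ly6a and Ly6c1, 0.723 for Ly6c1 and Plaur and 0.513 for Ly6a and Plaur. By Spearman's rho, 3 of the 5 genes for Ly6c1, 1 for Plaur and 0 for Ly6a were again among the 5 closest.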

How the data were processed

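RNA of single ICMs, single epiblasts and single cells was made into libraries by SMART-seq2 per the labels' protocols. The authors deposited FPKM values in a table of 7186 lines, of which 4 with a repeated name were left out. Per the submitters' processing notes, STAR 2.7.3 and Bowtie2 2.3.5 are among the tools, as are Trim Galore 0.6.4, Bismark, HOMER 4.10.4 and MACS2 2.2.6, with mm10 as build. The notes, as held here, give no roles. The 4 methylation tables, as deposited, give read counts, methylated read counts and percent methylation by CpG, and only their positions were used. Not analysed here were 7 H3K4me3 libraries and 2 of ATAC.

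Embryo libraries were compared on log2(FPKM + 1) with limma 3.58.1 in R 4.3.3 (trend, robust), keeping genes that averaged 1 FPKM or more over those libraries, and p values were adjusted by Benjamini-Hochberg over all genes tested. A gene was called at an adjusted p under 0.05. A pseudocount of 1 understates log2 differences of low genes. SE is the moderated standard error. Nothing beyond the labels says that embryos came from separate litters, so p values measure the spread between these samples.

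Ly6a, Ly6c1, Plaur and the 13 gene lists were chosen with earlier results of these data known. Named were the 3 genes, every family gene in the table, up to 4 genes of each list with the smallest p in each comparison, and the 5 most like each gene. At E5.5, Gata3, Esrrb, Ifitm3, Irf9, B2m, Folr1, Igf2r, Bst2 among GPI-anchored proteins, and Etv4 fall outside that rule and were named after their values were seen. A result that the rule names is not reported here. Symbols, positions and promoters came from RefSeq (GRCm38.p6), and alignments from Biopython 1.88. Alternatives were a filter of 5 FPKM or none, pseudocounts of 0.1 or 5, quantile and median ratio scaling, non-robust empirical Bayes, 1 fit of 4 groups, a replicate block, leaving out each library, and leaving out KO ICM libraries 1, 4 and 6.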

Additional observations from a re-analysis of the deposited data

Results flagged for a closer look

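Among 37 groups of libraries or cells looked at for a value far from the others, 6 were found. The cut-off used gives about 1 in 20 by chance for normally distributed values. FPKM are skewed and hold zeros, so that rate does not apply here and no excess is read from the 6. Groups of 3 libraries or fewer, those of E5.5 included, were not looked at. In WT ICM library 2, Ly6g was at 5.13 FPKM (others 0 to 1.67), Ly6g6e at 52.3 FPKM (others 2.63 to 23.8) and Cd59b at 31.6 FPKM (others 10.9 to 18.1). In WT ICM library 1, Plat was at 4.05 FPKM (others 0 to 0.330). In KO ICM library 4, Ly6k was at 37.4 FPKM (others 0 to 8.37). In KO ICM library 3, which also had the most Ly6a, S100a10 was at 524 FPKM (others 69.4 to 143).

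For 18 genes reported here, every KO library lay on 1 side of the WT mean in the ICM and on the other at E5.5. Looked at were the family and plasminogen activation genes and up to 4 genes of each list with the smallest p in each comparison. The share of all genes that meet this rule was not computed, so nothing is read from the count of 18. The rule asks for no gap between KO and WT libraries, and some values lie near 0. Tbx3 at E5.5 spanned 0.398 to 0.770 FPKM in the KO and 0 to 0.713 FPKM in WT. Ly6g was at 0 in 5 of 7 WT ICMs. Other genes had means in opposite order without meeting this rule. Plaur was one, with KO and WT means of 107 and 0.997 FPKM at E5.5, then 13.1 and 25.6 FPKM in the ICM. The difference between the stages was not tested. Means below are KO and WT FPKM at E5.5, then KO and WT in the ICM. Of the 18, those higher in the KO at E5.5 and lower in the KO ICM come first. Ly6g was at 3.14 and 0, then 0 and 0.972. Anxa2 was at 195 and 2.80, then 33.9 and 85.6, and Folr1 at 161 and 16.3, then 147 and 307. Efna1 was at 14.1 and 2.74, then 1.72 and 8.44, and Efna2 at 2.11 and 1.44, then 0.960 and 2.88. Phlda1 was at 7.47 and 0.396, then 3.37 and 6.79, Junb at 5.48 and 0.950, then 0.0754 and 0.785, and Cd55 at 16.3 and 0.450, then 14.1 and 23.1. Among trophectoderm markers, Gata3 was at 147 and 0.427, then 3.63 and 42.5, Cldn4 at 41.3 and 2.41, then 0.773 and 21.7, and Tead4 at 8.18 and 0.140, then 1.61 and 8.88. Among endothelial and other markers, Eng was at 5.08 and 2.10, then 0.405 and 4.77, Pecam1 at 4.55 and 1.01, then 2.21 and 9.12, P4ha2 at 13.6 and 4.56, then 4.34 and 13.5, and Tbx3 at 0.523 and 0.254, then 7.77 and 18.7. Those lower in the KO at E5.5 and higher in the KO ICM were Cd59b, at 0.969 and 6.77, then 39.3 and 16.0, Ifitm2, at 114 and 484, then 478 and 189, and Ifitm3, at 30.8 and 132, then 19.8 and 7.499.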

How the results depend on the processing

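The differences of Ly6a, Ly6c1 and Plaur at E5.5 and between the WT stages kept their sign under every alternative run, and their size moved with the pseudocount. At E5.5 they were 10.1, 7.99 and 6.62 with a pseudocount of 0.1 and 5.55, 2.87 and 4.195 with 5. From the WT ICM to the WT epiblast they were -11.4, -5.81 and -4.43 with 0.1 and -6.90, -1.36 and -2.24 with 5. Leaving out each library gave 7.55 to 7.78, 4.93 to 5.12 and 5.55 to 5.85 at E5.5, -9.30 to -8.96, -3.31 to -2.78 and -3.73 to -3.41 for the WT stages, and -2.05 to -1.26 for Plaur in the ICM, where Plaur was at -0.0721 without KO libraries 1, 4 and 6.
The ICM count of 1540 genes fell to 680 with quantile normalization, 876 with median ratio scaling and 405 without KO libraries 1, 4 and 6, of which 394 were among the 1540, and was 946 to 1875 without single libraries. The lowest came without WT library 1 and, at 987, without WT library 4. Of the list genes, 26 were called in the ICM, against 15 with a filter of 5 FPKM, 9, 13 and 3 under those scalings and without those libraries, and 16 to 35 without single libraries. The E5.5 count of 2032 was 702 with 4 groups in 1 fit and 1205 to 2185 without single libraries (1205 without WT library 1, 1293 without WT library 2), and the 60 list genes called there were 52 to 63. The WT stage count of 3388 was 2670 to 3435, and its 67 list genes were 54 to 71. In that comparison 66.3% of calls were higher, against 52.8% with quantile normalization and 52.8% with median ratio scaling. KO and WT libraries of the same replicate number correlated at -0.133 to 0.155 in the ICM and -0.0224 to 0.118 at E5.5. The WT library of the same number was the closest for 1 of 7 KO ICMs and for 2 of 3 KO E5.5 libraries. Whether numbers pair the E5.5 samples was thus not settled. With number as a block the counts were 1221, 1950 and 2993. The cause of these shifts was not tested. FPKM hide the depth, so no limit can be set on values listed at 0.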

Other observations

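Ly6f, a family gene of the chromosome 15 cluster, was abundant in E4.5 primitive endoderm, at 239 and 142 FPKM in the KO cells and 103 FPKM in the WT cell, whereas every epiblast cell was listed at 0 but a WT cell at 0.323 FPKM. Its ICM level averaged 9.16 ± 5.85 FPKM in the KO and 10.1 ± 5.54 FPKM in WT (SD, n = 7 each). Ly6k was at 28.2 FPKM in the WT endoderm cell and listed at 0 in both KO endoderm cells.

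The level of Ly6a over that of Ly6c1, both in FPKM, was 6.12 to 10.9 in the libraries labelled KO E5.5 epiblast, below the 29.3 to 221 of KO ICMs and the 29.9 to 236 of WT ICMs. Ly6c1 over Ly6c2 was 1.86 to 5.69 in KO E5.5, 0.925 to 4.65 in KO ICMs and 1.55 to 5.56 in WT ICMs, which overlap. Within 300 kb of Plaur, in genes looked up after its values were seen, Ethe1 rose at E5.5 (log2 difference 0.996, limma adjusted p = 0.0111) and Xrcc1 fell (-0.83, adjusted p = 0.0167).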
